A study of Mus musculus with 6 samples.

Results

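ISG15 conjugation genes are the genes for the ubiquitin-like modifier ISG15 and for the enzymes that attach it to other proteins and remove it. The 5 members were taken by symbol, through their Ensembl identifiers, from a table of 41388 mouse genes: Isg15, the modifier, Uba7, its activating enzyme (E1), Ube2l6, its conjugating enzyme (E2), Herc6, its ligase (E3), and Usp18, the protease that removes it. All 5 were found, and all 5 had the mean normalized count of at least 10 that was required for testing, as did 11379 genes in total. The samples were cultures of naive CD4+ T cells, 3 from WT and 3 from Irf1-/- mice on the C57BL/6 background at 8 to 12 weeks of age, each kept for 2 days with IL-2, IL-4 and TGF-β, which are Th9 conditions, and with IFN-γ at 5 ng per ml. Both groups therefore received IFN-γ, and cultures without it were not analysed here. In the general culture protocol of the paper, the T cells were also activated by plate-bound antibodies against CD3 and CD28. That protocol includes an antibody against mouse IFN-γ, and the added IFN-γ was of rat origin. The paper's description of the sequenced cultures does not repeat these details. The Irf1-/- mice lack IRF1 in all of their cells from birth, so that the naive T cells had also developed without it.

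ISG15 is a small protein built of a pair of ubiquitin-like domains, and it is coupled to lysines of other proteins in a cascade like that of ubiquitin. UBA7 activates it, UBE2L6 takes it over from UBA7, and in the mouse HERC6 is the main ligase that passes it to the target, the part played by HERC5 in human cells. USP18 cuts ISG15 off its targets and, apart from this, binds the type I interferon receptor and dampens its signal. All 5 genes are classed as interferon-inducible, and ISG15 is best known for the antiviral response to type I interferon. IRF1 is a transcription factor that is itself induced by IFN-γ. Interferon regulatory factors bind DNA elements with repeated GAAA, and a palindrome known as GAS is another element through which IFN-γ acts.

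Upstream sequence was at hand for Isg15, Uba7, Ube2l6 and Herc6, from RefSeq on GRCm38.p6, and the sequence for Usp18 was not analysed here. The 250 bases before the RefSeq transcription start were searched. They are printed 5′ to 3′ on the strand of the gene, for Uba7 up to its GENCODE start, 62 bases upstream of the RefSeq start, because the members with the same interferon label differ in them and, as described further on, in their response. Capitals mark the letters of a match to AANNGAAA, the core read by interferon regulatory factors, or to the IRF pair, which is GAAA, any 2 bases and GAAA again and so contains that core, on either strand.

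Isg15 (chr4:156200819-156201068, - strand): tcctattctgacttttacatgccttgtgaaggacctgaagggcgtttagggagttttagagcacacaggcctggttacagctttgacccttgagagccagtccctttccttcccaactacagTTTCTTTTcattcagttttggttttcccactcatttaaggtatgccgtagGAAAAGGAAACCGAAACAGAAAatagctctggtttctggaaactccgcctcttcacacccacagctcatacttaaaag
Uba7 (chr9:107975317-107975504, + strand): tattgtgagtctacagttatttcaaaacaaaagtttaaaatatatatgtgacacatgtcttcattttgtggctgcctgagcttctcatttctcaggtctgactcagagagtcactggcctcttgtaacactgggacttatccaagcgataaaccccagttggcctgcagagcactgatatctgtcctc
Ube2l6 (chr2:84798578-84798827, + strand): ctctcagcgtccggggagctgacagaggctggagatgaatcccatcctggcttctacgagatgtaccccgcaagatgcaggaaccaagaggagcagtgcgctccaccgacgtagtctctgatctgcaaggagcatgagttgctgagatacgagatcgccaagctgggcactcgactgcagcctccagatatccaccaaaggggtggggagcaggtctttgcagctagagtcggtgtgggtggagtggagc
Herc6 (chr6:57580742-57580991, + strand): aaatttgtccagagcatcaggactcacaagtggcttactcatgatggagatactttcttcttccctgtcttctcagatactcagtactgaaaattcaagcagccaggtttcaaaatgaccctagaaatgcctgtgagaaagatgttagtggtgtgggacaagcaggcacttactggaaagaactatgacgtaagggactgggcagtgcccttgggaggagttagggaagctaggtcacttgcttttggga

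In the Isg15 window, 3 overlapping copies of the IRF pair ran from base -78 to base -57 relative to the start, and 4 copies of AANNGAAA were found, of which 3 lay inside that run. The Uba7 window held 1 copy of AANNGAAA, on the opposite strand from base -27 to base -20 of the RefSeq start. That copy lies in the first exon of Uba7 in GENCODE and is not printed. No copy of either motif was present in the windows of Ube2l6 and Herc6, and the GAS motif TTCNNNGAA was absent from all 4 windows. Of 32851 RefSeq promoter windows of the same length, 2.98% held the IRF pair, 21.3% held AANNGAAA and 7.02% held TTCNNNGAA. Such matches describe the letters of these windows and do not show that a factor was bound.

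Of the 5 genes, the E1, the E2 and the protease were lower in Irf1-/- than in WT Th9 cells. The ligase was slightly higher, a difference that did not pass the test in 10 of 19 alternative fits. The modifier itself was low in every culture, with no difference between genotypes that passed the test. Values are normalized counts, read numbers scaled by a size factor per library, and a gene was called at a Benjamini-Hochberg adjusted p below 0.05 in limma's test across all 11379 genes. By this rule 3 of the 5 members were called lower and 1 higher, where 12.4% of all genes tested were called lower, 11.4% higher and 23.7% either way. The 3 lower members had log2 fold changes below -1, which 1.34% of all genes tested had together with a call. WT and Irf1-/- values were fully separate in 4 of the 5 members, which was so for 40.5% of all genes tested, 20.9% with lower and 19.7% with higher values in Irf1-/- cells.

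**Figure D1:**
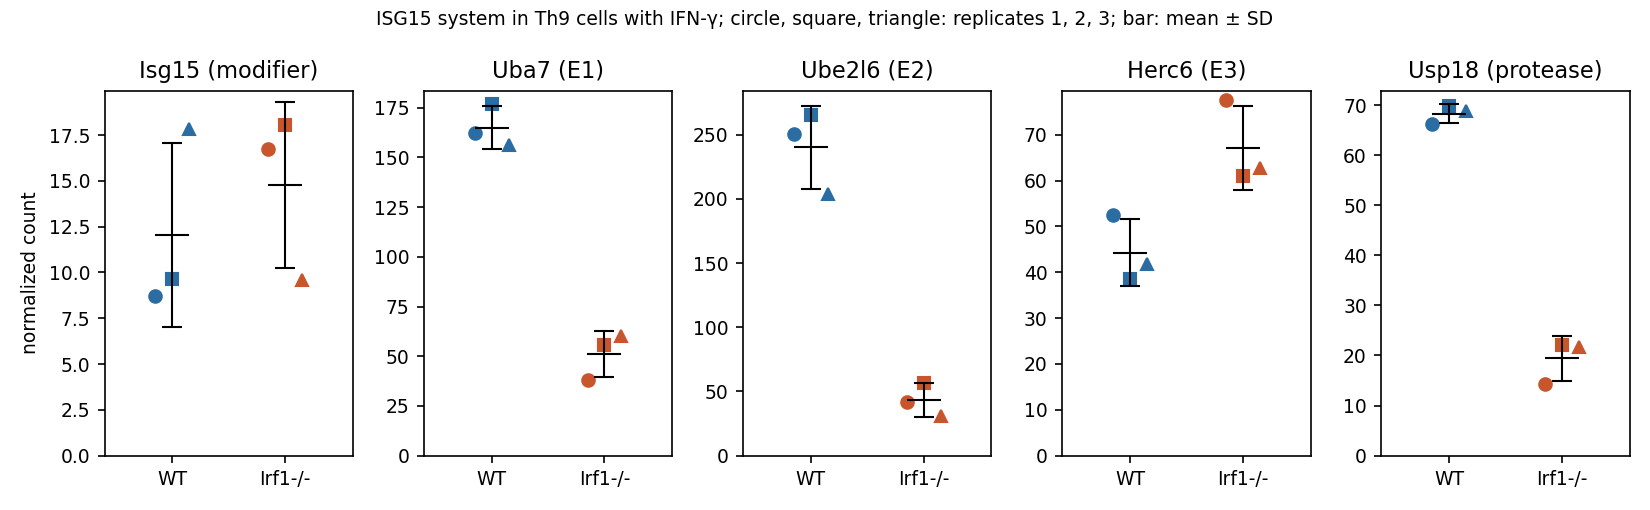
Normalized counts of the 5 genes in each culture, with WT in blue, Irf1-/- in orange, and the mean and SD of 3 cultures in black. Uba7, Ube2l6 and Usp18 lie lower in all Irf1-/- cultures, Herc6 lies higher in all of them, and Isg15 overlaps between the genotypes at 8.74 to 18.0 normalized counts.

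Isg15 (ENSMUSG00000035692) lies at chr4:156199424-156200818 of GRCm38, on the - strand. Replicates 1, 2 and 3 of the WT had 8.74, 9.62 and 17.8 normalized counts, and those of Irf1-/- had 16.7, 18.0 and 9.59. These values stand for 7, 8 and 29 reads in the WT and 14, 13 and 15 reads in the Irf1-/- libraries. In each genotype 1 culture went against the other 2: the highest WT value was that of replicate 3, which was also the replicate with the lowest Irf1-/- value. WT cells had a mean of 12.1 ± 5.01 (SD, n = 3), against 14.8 ± 4.54 (SD, n = 3) without IRF1. On the log2 scale the fold change from WT to Irf1-/- was 0.29 (SE 0.377, 95% interval -0.54 to 1.13), with a limma adjusted p of 0.621. The interval thus includes levels from 0.686 to 2.18 times that of the WT. Both the few reads and the spread between cultures enter its width, and their shares were not tested.

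The sign of the Isg15 difference was not the same in all replicates. In replicates 1 and 2 taken alone, the log2 fold change was 0.85 (limma adjusted p = 0.153), and in replicate 3 alone it was -0.83, with no test. WT replicates 1 and 2 were also the libraries with high Y-linked levels, up to 2306 normalized counts over 4 genes, against at most 11.1 in any Irf1-/- culture and 0 in WT replicate 3, and once the Y-linked level was added to the fit the log2 fold change of Isg15 was -0.16 (limma adjusted p = 0.862). In 18 alternative fits the adjusted p lay between 0.153 and 0.889. Of the 50-base stretches of the annotated Isg15 transcript, 3.96% also occur in a transcript of another gene, while copies of Isg15 outside annotated transcripts were not examined here. The treatment of reads with several matches was not stated, and its part in the low level of Isg15, in that level per kilobase and in the ratios of the enzymes to Isg15 was not tested.

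Uba7 (ENSMUSG00000032596, chr9:107975505-107984060, + strand) encodes the E1, with which every transfer of ISG15 begins. It had 162, 177 and 156 normalized counts with IRF1 and 38.2, 55.5 and 60.1 without. The lowest WT value was thus far above the highest Irf1-/- value. The mean fell from 165 ± 10.6 (SD, n = 3) to 51.3 ± 11.5 (SD, n = 3), 31.1% of the WT level. The log2 fold change was -1.69 (SE 0.173, 95% interval -2.07 to -1.31, limma adjusted p = 0.000104), and Uba7 ranked 71 from the lowest of the 11379 genes tested. Gm20661, a second gene model that overlaps Uba7 on the same strand, was at 0 in all 6 libraries.

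Ube2l6 (ENSMUSG00000027078, chr2:84798828-84810335, + strand) encodes the E2, which carries activated ISG15 to the ligase. Its normalized counts were 251, 266 and 204 in the WT cultures against 41.8, 56.9 and 30.7 in the Irf1-/- cultures. WT replicate 3 was the lowest of its group and Irf1-/- replicate 3 the lowest of the other. The mean fell from 240 ± 32.2 (SD, n = 3) to 43.1 ± 13.1 (SD, n = 3), so that 17.9% of the WT level remained. With a log2 fold change of -2.49 (SE 0.204, 95% interval -2.94 to -2.03, limma adjusted p = 2.72e-05), it moved most of the 5 genes and ranked 30 from the lowest among all 11379.

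Usp18 (ENSMUSG00000030107, chr6:121245906-121270917, + strand) encodes the protease that reverses the conjugation. It had 66.1, 69.7 and 68.8 normalized counts in the WT cultures, the closest agreement of any member in either genotype relative to its mean. In the Irf1-/- cultures the values were 14.3, 22.2 and 21.7, all below every WT value. The mean fell from 68.2 ± 1.87 (SD, n = 3) to 19.4 ± 4.41 (SD, n = 3), 28.5% of the WT level. The log2 fold change was -1.79 (SE 0.215, 95% interval -2.26 to -1.31, limma adjusted p = 0.000301). The reads behind it were few in the Irf1-/- libraries, 12, 16 and 34. Gm44148, a gene model on the other strand that has no row in the table, overlaps Usp18 over 124 exonic bases, and whether strand was used in counting was not stated.

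Herc6 (ENSMUSG00000029798, chr6:57581000-57664632, + strand) encodes the ligase that selects the proteins to be marked, and it went the other way. WT replicates had 52.4, 38.5 and 41.8 normalized counts, and Irf1-/- replicates 77.6, 61.0 and 62.6. The groups did not overlap, but WT replicate 1 and Irf1-/- replicate 2 were close to each other. The mean rose from 44.2 ± 7.28 (SD, n = 3) to 67.1 ± 9.15 (SD, n = 3), or 1.52 times, with a log2 fold change of 0.59 (SE 0.182, 95% interval 0.191 to 0.996, limma adjusted p = 0.0379). This call was lost in 10 of 19 alternative fits, with adjusted p values from 0.0109 to 0.147 over all of them. Leaving out any library other than WT replicate 1 ended it, at log2 fold changes between 0.49 and 0.66, while the sign was positive in every fit. Of the 50-base stretches of Herc6 transcripts, 12.5% also occur in another gene's transcript, most of them in Gm45193, which lies within Herc6 on the same strand and has no row in the table.

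**Figure D2:**
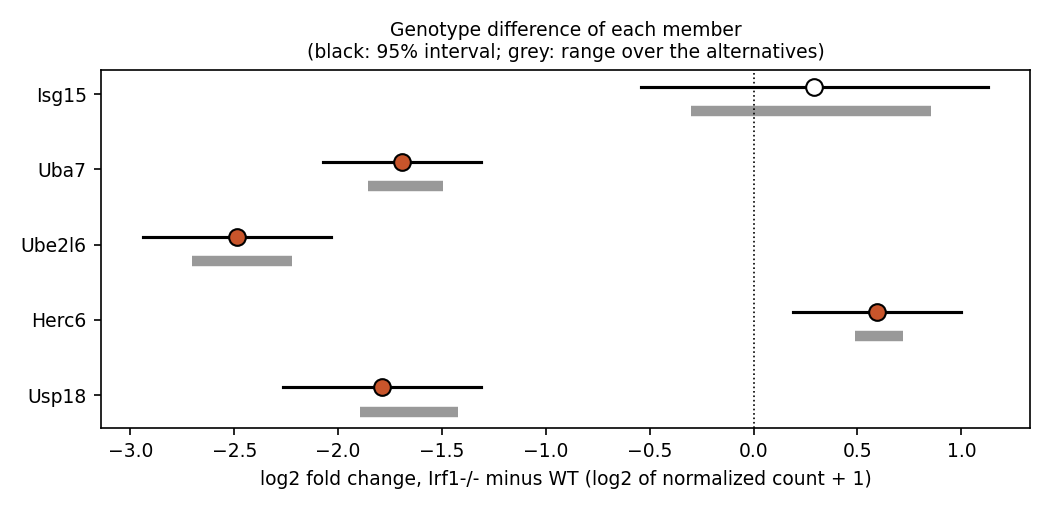
Log2 fold change of each gene from WT to Irf1-/- with its 95% interval in black and, in grey, the range over the alternative fits that gave a test. Filled points passed an adjusted p of 0.05 in limma. The intervals of Ube2l6, Usp18 and Uba7 end below -1.3, and that of Isg15 spans 0.

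The decreases of the E1, the E2 and the protease were stable over the libraries. In 19 alternative fits for Uba7 and Ube2l6 and 18 for Usp18, all were called lower, with log2 fold changes from -1.86 to -1.50 for Uba7, from -2.70 to -2.22 for Ube2l6 and from -1.89 to -1.42 for Usp18. A library of Irf1-/- cells, replicate 2, held the most of the myeloid transcript Lyz2, at 559 normalized counts against 7.03 to 134 elsewhere. Without it, the log2 fold changes were -1.76 for Uba7, -2.70 for Ube2l6 and -1.89 for Usp18. Among the libraries in which each of 4 Y-linked genes was at or under 10 normalized counts, WT replicate 3 against the 3 Irf1-/- cultures, they were -1.61, -2.26 and -1.80, each called, and that of Herc6 was 0.66 (limma adjusted p = 0.147, within the range given for that gene). In this last fit the lone WT library is assumed to vary like the others.

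Levels of different genes were compared per kilobase of annotated exons. In WT cells the E2 led, with 120 ± 16.1 (SD, n = 3) normalized counts per kilobase for Ube2l6, followed by Uba7 at 24.7 ± 1.58, Usp18 at 24.5 ± 0.670, Isg15 at 15.95 ± 6.63 and Herc6 at 4.76 ± 0.784. Uba7 and Usp18 did not differ beyond their spread. In Irf1-/- cells Ube2l6, at 21.6 ± 6.58 per kilobase, and Isg15, at 19.5 ± 6.01, were within each other's spread. Uba7 at 7.66 ± 1.72, Herc6 at 7.22 ± 0.984 and Usp18 at 6.96 ± 1.58 normalized counts per kilobase also lay together. Without IRF1 the E2 transcript thus no longer stood above that of the modifier per kilobase.

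Whether the enzymes changed in proportion to their modifier was asked within each library, as the log2 ratio of an enzyme to Isg15 after 1 was added to each normalized count. The Uba7 ratio was 4.07, 4.07 and 3.06 in the WT and 1.15, 1.57 and 2.53 in the Irf1-/- cultures, a mean difference of -1.98 on the log2 scale. For Ube2l6 the ratio was 4.69, 4.65 and 3.45 in the WT and 1.27, 1.604 and 1.58 in the Irf1-/- cultures, a mean difference of -2.78. For Usp18 the mean difference was -2.08, from 2.47 ± 0.503 to 0.39 ± 0.662 (SD, n = 3). The groups of these 3 ratios did not overlap, and each reached p = 0.1 in an exact permutation test (two-sided), or 0.133 adjusted over the 4 ratios, where 3 against 3 cultures cannot go below 0.1. The Herc6 ratio overlapped between genotypes, at 1.85 ± 0.637 in WT and 2.15 ± 0.441 in Irf1-/- cells (SD, n = 3, exact two-sided permutation p = 0.6). All 4 ratios carry the counting error of the few reads on Isg15.

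**Figure D3:**
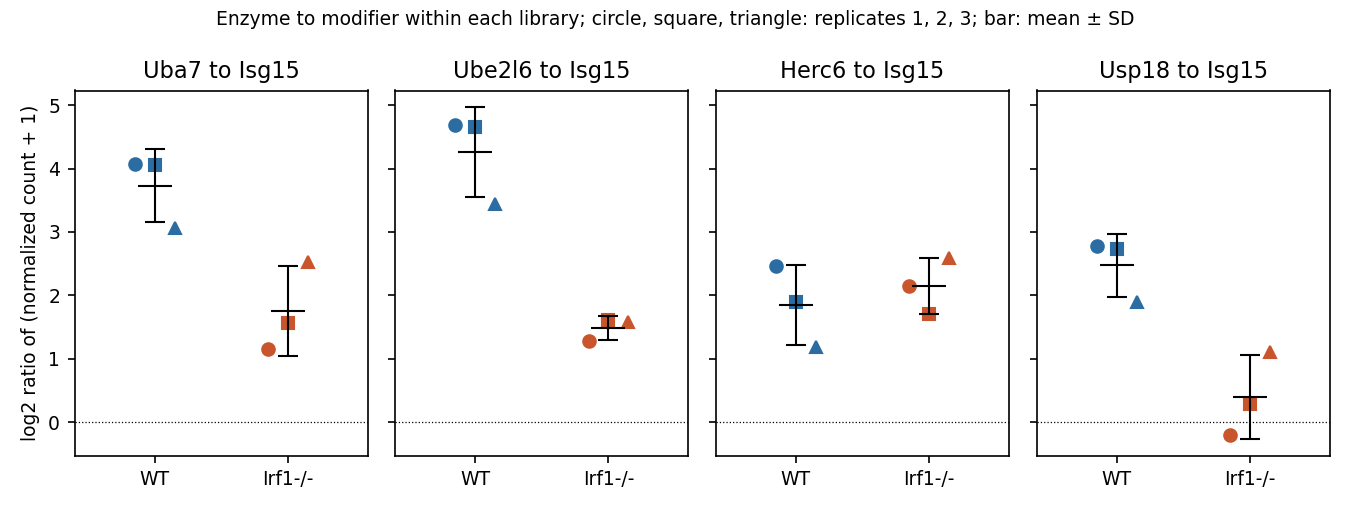
Log2 ratio of each enzyme to Isg15 within each library, for WT in blue and Irf1-/- in orange, with the mean and SD of 3 cultures in black. The ratios of Uba7, Ube2l6 and Usp18 are lower in all Irf1-/- cultures, and the Herc6 ratio overlaps.

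Ratios among the 3 lower genes were taken after their values had been seen. The ratio of Usp18 to Uba7 hardly moved, with log2 values of -1.28, -1.33 and -1.17 in the WT and -1.35, -1.28 and -1.43 in the Irf1-/- cultures. The protease and the E1 thus overlapped in this measure, with a mean difference of -0.09 (exact two-sided permutation p = 0.2). The ratio of Ube2l6 to Uba7 went from 0.53 ± 0.129 to -0.26 ± 0.595 (SD, n = 3), and the groups did not overlap (exact two-sided permutation p = 0.1, or 0.15 adjusted over 3 ratios). Most of that spread came from Irf1-/- replicate 3, at -0.95, where the E2 was lowest. The ratio of Usp18 to Ube2l6 went from -1.79 ± 0.206 to -1.09 ± 0.538 (SD, n = 3), a mean difference of 0.70, also without overlap (exact two-sided permutation p = 0.1, or 0.15 adjusted over the 3).

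The likeness of other genes to each member was measured as the root mean square difference of log2 values over the 6 libraries, each gene centred on its own mean. Of all genes tested, Usp18 was the nearest to Uba7 and Uba7 the nearest to Usp18, at 0.0785 log2 units, followed for both by Nfix, a transcription factor gene, at 0.110 from Uba7 and 0.115 from Usp18. The third nearest was Tcam1 for Uba7, at 0.162, and Ifi203, an interferon-inducible gene of the PYHIN family, for Usp18, at 0.136. Nearest to Ube2l6 were Gbp3, a guanylate-binding protein gene, at 0.207, Fmnl2 at 0.222 and Insl6 at 0.236. Herc6 was nearest to Gm14113, 4632404H12Rik and Mroh1, at 0.0626 to 0.101, and Isg15 to Polr2l, Rtkn2 and Slc7a11, at 0.176 to 0.219. The measure rests on 6 libraries in 2 groups.

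Of the other genes reported to act with ISG15, none had as large a log2 fold change as the E1, the E2 or the protease. Of 9 further enzymes, 8 were tested, with 2 lower and none higher, beside 12.4% lower and 11.4% higher over all genes tested. Their median log2 fold change was -0.12, against -0.00373 over all genes tested. Skp2, which targets USP18 for degradation, fell from 331, 351 and 370 normalized counts in WT to 287, 234 and 261 in Irf1-/- cultures (log2 fold change -0.43, limma adjusted p = 0.00852). Its call was lost in 1 of 19 alternatives. Usp14, a proteasome-bound protease, had a log2 fold change of -0.23 (limma adjusted p = 0.0293) and was called in 13 of 19 alternatives. Trim25, another ISG15 ligase, had 971, 950 and 1038 normalized counts in the WT and 848, 882 and 1023 in the Irf1-/- cultures, which overlap.

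Partners that bind ISG15 or USP18 were 7 in number and all were tested, with 1 lower and 2 higher, where 12.4% and 11.4% of all genes tested were. Stat2 and Ifnar2, through which USP18 reaches the type I interferon receptor, were not called, with log2 fold changes of 0.28 and 0.13. Itgal, a chain of the LFA-1 integrin that binds free ISG15, had -0.19 (limma adjusted p = 0.0307, lost in 7 of 19 alternatives). The higher ones were Sqstm1 at 0.25 and Hdac6 at 0.34, the genes of an autophagy receptor and of a deacetylase, of which Hdac6 lost its call in 10 of 19 alternatives.

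Among 15 genes of proteins reported to carry ISG15, 14 were tested, with 2 lower, 3 higher and a median log2 fold change of 0.06. The shares over all genes tested were 12.4% lower and 11.4% higher. Ifih1, the gene of the RNA sensor MDA5, went from 156, 120 and 114 normalized counts in the WT to 41.8, 49.9 and 60.7 in the Irf1-/- cultures, which did not overlap. Its log2 fold change was -1.34 (limma adjusted p = 0.000532, SE 0.178), called in all 19 alternatives, and -0.90 in replicate 3 alone. Irf3 and Mapk3 were higher, at log2 fold changes of 0.28 and 0.37, with calls lost in 4 and 6 of 19 alternatives. The dynamin-like antiviral gene Mx1 was at or under 1.20 normalized counts in all libraries and was not tested.

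**Figure D4:**
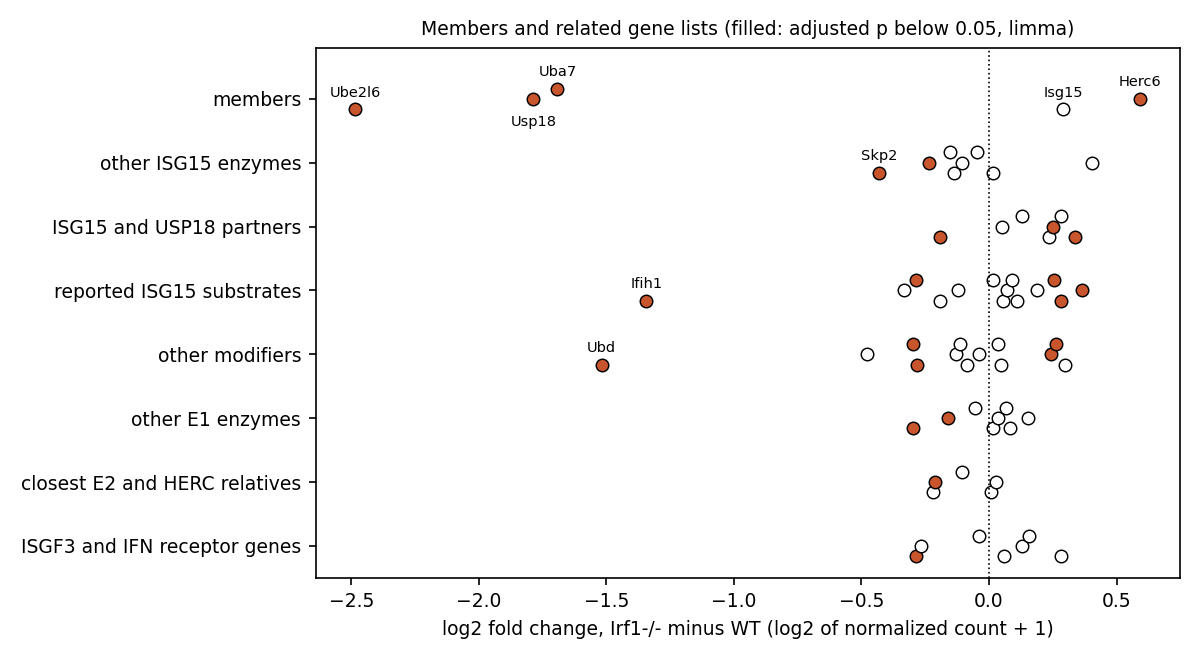
Log2 fold change from WT to Irf1-/- of the tested genes of each list, with filled points for an adjusted p below 0.05 in limma. Besides Ube2l6, Usp18 and Uba7, only Ubd and Ifih1 among the plotted genes lie below -1.

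The counterparts of the members in other modifier systems were compared in the same fit. Of 8 activating enzymes of other modifiers, 2 were lower and none was higher, beside 12.4% lower and 11.4% higher over all genes tested. The lower ones were Uba6 at -0.30 and Uba2 at -0.16, with calls lost in 8 and 12 of 19 alternatives. Log2 fold changes of the 8 ran from -0.30 to 0.15. Uba1, the main E1 of ubiquitin, had 11440, 11148 and 12553 normalized counts in the WT and 12439, 12142 and 12576 in the Irf1-/- cultures, with a log2 fold change of 0.08. Ube2l3, the nearest relative of Ube2l6, had 384 to 401 normalized counts in WT and 398 to 399 in Irf1-/- cells. The change of 0.03 on the log2 scale (SE 0.0679) had an adjusted p of 0.811 in limma. The other tested HERC genes, Herc1 to Herc4, had log2 fold changes between -0.22 and 0.01, with Herc2 called lower at -0.21 and in 10 of 19 alternatives. Herc3, at -0.22 (limma adjusted p = 0.114), was not called here but was in 4 of 19 alternatives, over which its adjusted p ran from 0.0217 to 0.314.

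Of 13 genes of ubiquitin and other modifiers, 3 were called lower and 2 higher, with a median log2 fold change of -0.08. Over all genes tested, 12.4% were called lower and 11.4% higher. The largest decrease was that of Ubd, the gene of FAT10, an interferon-inducible modifier that directs proteins to the proteasome. It had 17.5, 26.4 and 9.84 normalized counts in the WT and 3.58, 8.32 and 4.47 in the Irf1-/- cultures, so that the lowest WT and the highest Irf1-/- value were close. Its log2 fold change was -1.52 (limma adjusted p = 0.0324), and the call was lost in 6 of 16 alternatives, among them the Y-linked covariate, where the log2 fold change was -0.83, and the fits without WT replicate 1, at -1.49, and without replicate 1 or 3 of Irf1-/-, at -1.30 and -1.43. Sumo3, at -0.30, and Urm1, at -0.28, were the other lower ones, with calls lost in 2 and 10 of 19 alternatives. The ubiquitin gene Ubb was higher, at 0.24, and lost its call in 6 of 19 alternatives.

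Of the genes for interferon signalling, Irf9 had a log2 fold change of 0.06, Ifnar1 of -0.04, and Ifngr1 and Ifngr2 of 0.16 and -0.26, none of which passed the test.

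Reads on genes numbered 5639788 to 13348230 per library, and reads counted over the whole Irf1 gene came to 58.4% of WT without IRF1, which cannot show how many lie in the deleted part. T cell markers were abundant, with a summed level of 13035 to 13106 normalized counts in WT and 12177 to 12610 in Irf1-/- cultures. Of these, 2 of 6, Cd3e and Trac, were called lower, beside 12.4% of all genes tested. All 3 NK cell markers were at 0, which allows up to 3 reads per library, or 1.84 to 4.16 normalized counts. Siglech and Ccr9, which define plasmacytoid dendritic cells, reached at most 1.19 normalized counts, while Bst2 and Tcf4 of the same list were lower in Irf1-/- cells, and the 4 B cell markers together reached at most 37.4. Of 8 myeloid markers 5 were tested, with a median log2 fold change of 0.30. Ctss and Mpeg1, which interferon can also induce, were called lower at -1.05 and -1.16, while Lyz2, Itgam and Cd68 had log2 fold changes of 1.45, 1.34 and 0.30 that did not pass the test. The sum of the 8 was 613 to 795 in WT and 284 to 1012 in Irf1-/- cultures, with Csf1r, Fcer1g and Tyrobp at or under 15.3. The part of these cells in the differences was not tested beyond the fit without Irf1-/- replicate 2, and in bulk cultures fewer cells of a kind and less RNA per cell cannot be told apart.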

How the data were processed

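Poly(A) RNA of 6 cultures was sequenced as single-end reads. The authors mapped the reads to GRCm38 with STAR 2.4.0b, counted them on genes of Ensembl 76 with featureCounts and divided them by size factors of DESeq2 1.12.3, and deposited these normalized counts as the signal of each gene. Whole reads were recovered for 100% of the values above 0 in each library (within 0.01 of a whole number), and 3 reads equal 1.84 to 4.16 normalized counts. Use of strand was not given in the sources used here. Symbols were found for 40254 of 41388 identifiers, and gene models came from GENCODE M21 on the same build.

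Genotypes were compared in R 4.3.3 with limma 3.58.1 (eBayes with a trend) on log2 of the normalized count plus 1, with no covariate, over genes with a mean of at least 10. The paper describes 3 independent biological samples, while nothing in the labels says that replicates came from separate mice. The p-values therefore measure the spread between these cultures. Ratios were compared by exact permutation tests. Since fold changes are on that scale, they understate the change of low genes. The fit was repeated with another pseudocount (0.1 or 10), without the filter or with a stricter one (mean 50), after quantile or TMM scaling, without the trend, with a replicate block, by edgeR 4.0.16 and DESeq2 1.42.0 on recovered reads, leaving out single libraries, and with a Y-linked covariate or subsets of libraries. The scripts were tested on simulated data. The members, lists and tests were chosen with earlier results of these data known. The lists came from general knowledge, and named genes are the members, up to 4 called genes of each list with the largest change, direct counterparts of members, and the 3 genes nearest in pattern to each member. Some genes of the lists are not reported here.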

Additional observations from a re-analysis of the deposited data

How the results depend on the processing

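Uba7, Ube2l6 and Usp18 were called lower in every alternative that gave a test, and leaving out single libraries gave log2 fold changes of -1.82 to -1.50, -2.70 to -2.27 and -1.89 to -1.59. Isg15 was not called in any, and its sign turned with the Y-linked covariate (-0.16), among the libraries low in Y-linked transcripts, with each of 4 genes at or under 10 normalized counts (-0.30) and in replicate 3 alone (-0.83). Without single libraries it ran from 0.11 to 0.59. Herc6 was not called without the filter on low values (log2 fold change 0.59), with quantile normalization (0.50), in DESeq2 (0.61), with the Y-linked covariate (0.64) or among the libraries low in Y-linked transcripts (0.66), so that 0 members were higher there, and it ran from 0.49 to 0.72 without single libraries, with 0 to 1 members called higher. The ratio of Herc6 to Isg15 ran from -0.0278, without WT replicate 3, to 0.61. Ube2l3 turned to -0.00472 with the covariate, -0.00965 among the libraries low in Y-linked transcripts and -0.0118 in replicate 3, and Uba1 to -0.0102 and -0.0196 in the first and second of these. The cause of these changes was not tested. Isg15 and Usp18 were below the filter at a mean of at least 50, so neither has a value there, and Ubd fell below the filter there, without WT replicate 2 and among the libraries low in Y-linked transcripts.

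Over all genes, 1406 were called lower and 1293 higher. The number lower was 807 without a trend, 403 among the libraries low in Y-linked transcripts, and 824 to 1471 without single libraries (lowest without WT replicate 1 or 2). The number higher was 856 with the covariate, 407 among the libraries low in Y-linked transcripts, and 805 to 1380 without single libraries (lowest without WT replicate 2). A replicate block, for the numbers the cultures carry in the labels, gave 2116 lower and 1893 higher genes, with a log2 fold change of 0.59 for Herc6 and adjusted p = 0.0109 from limma, and changed the call of no member, while Herc3 was called under it (adjusted p = 0.0217 from limma). Deviations from the group means correlated at 0.0922, 0.269 and 0.321 for same-numbered cultures, and every culture correlated best with its own number, a hint from the data and not from the design. DESeq2 called 1060 lower and 942 higher. With 7 to 29 reads per library on Isg15, depth and the spread between cultures limit what can be said of the modifier. The effect of reads with several matches on its level was not tested.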
